A study of Bos taurus with 30 samples.

Results

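The embryonic disc (ED) was compared with the extra-embryonic membrane (EEM) of the same embryo in Day 15 elongated bovine embryos conceived in vivo (IVV). The rule took every IVV embryo with a library from both tissues, which gave 8 embryos (VE3, VE4, VE5, VE19, VE24, VE26, VE28 and VE29) and 16 of the 30 libraries in the series. The IVV group came from 2 superovulated Holstein donors that were inseminated with frozen-thawed semen of a single Holstein bull and flushed at Day 15. The in vitro produced (IVP) group, used here only for the last comparison, came from slaughterhouse oocytes fertilised with semen of the same bull, transferred to recipients as blastocysts and flushed at the same age, and 5 of its embryos had both tissues. No embryo carried a transgene or an added agent. Embryos in which no disc was found had been discarded, and each selected embryo was cut so that the ED piece was separated from the membrane around it. Trophoblast and hypoblast may remain attached to the disc piece, to an extent that is unknown. The labels do not tie embryos to donor cows and do not give the sex of the embryos, so the 8 embryos are separate conceptuses of which several share a dam, and which ones is unknown.

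At this age the bovine disc is an exposed sheet of epiblast that lies within the trophoblast wall, and gastrulation starts in it when cells leave the primitive streak as mesoderm and definitive endoderm. The membrane is made of trophectoderm, which secretes interferon tau and pregnancy-associated glycoproteins, lined by hypoblast, which later forms the yolk sac. Epiblast is known for POU5F1 and NANOG, the streak for TBXT and EOMES, trophoblast for CDX2, GATA2 and GATA3, and hypoblast for GATA4, GATA6 and SOX17.

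Poly(A) RNA had been sequenced, and the deposited values were whole-number read counts for 35092 gene identifiers. The 16 libraries held between 49768415 and 58220960 counted reads. Between 19131 and 19725 genes had at least 1 read in an ED library and between 17753 and 18649 in an EEM library, so the range of the discs lay wholly above that of the membranes. The levels given here are CPM, each count as a share of its library's total after TMM scaling, which adjusts for composition. They are compared between tissues for 1 gene at a time and not between genes. On the first principal component of the log2 levels, which held 43.1% of the variance, every disc lay on one side and every membrane on the other. The second component, with 18.2%, placed both tissues of VE19 apart from the other embryos, at -79.1 and -97.6, while the other libraries lay between -45.9 and 40.2.

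Of 15138 genes with enough reads to test, 3222 (21.3%) differed between the tissues. Of these, 2320 were higher in ED and 902 were lower at an adjusted p under 0.05 (edgeR quasi-likelihood test with embryo as a block, Benjamini-Hochberg adjustment), which is 15.3% and 5.96% of the genes tested. These shares were 11% and 4.19% among genes with at least 10 counts in every library. Scaling by library totals alone, in place of TMM, gave 20% and 1.59%, and leaving out embryo as a block gave 11.4% and 0.482%. The differences were very unequal in size. The genes higher in ED had a median log2 fold change of 1.64, ED over EEM, and 531 of them exceeded 3. The genes lower in ED had a median of -0.47, and only 6 of them were below -3. In a test against a 2-fold difference (edgeR glmTreat) 1037 genes were higher in ED and 16 were lower, or 6.85% and 0.106% of those tested. The 8 disc values lay wholly above the 8 membrane values for 793 genes (5.24%) and wholly below them for 9 (0.0595%). The difference had the same sign in all 8 embryos for 1827 genes that were higher in ED (12.1%) and for 696 that were lower (4.6%). The number of genes lower in ED moved with the settings. With scaling by library totals alone 240 were lower, the median log2 fold change of all genes went from -0.05 to 0.13, and 92.7% of the calls were on the higher side against 72.0%. DESeq2, with its own scaling, put 57.7% there. Without embryo as a block 73 were lower. It was 504 without VE5 and 576 without VE28. With more than one cell type in each piece, a higher level in bulk RNA can come from more cells of a type or from more RNA per cell, and these cannot be told apart.

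**Figure D1:**
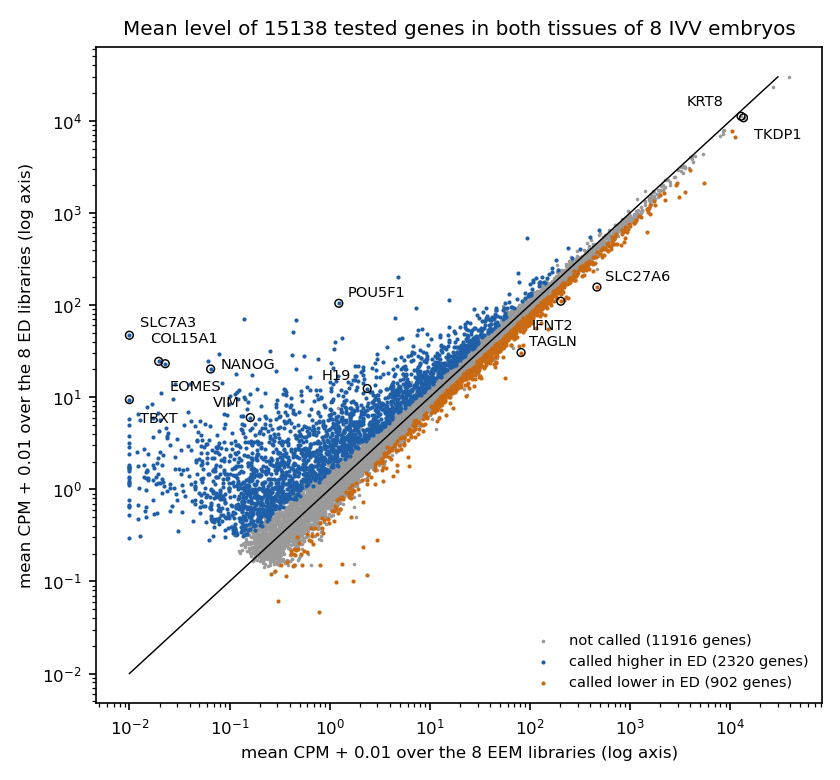
Mean level of each of the 15138 tested genes over the 8 EEM libraries (horizontal axis) and the 8 ED libraries (vertical axis), both as CPM + 0.01 on log axes, with equal levels on the black line. The 2320 genes called higher in ED (blue) reach far above the line, most of all where the membranes are near 0, while the 902 called lower (orange) lie close under it.

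The 3 markers set for the disc separated the tissues in every embryo. They were chosen with earlier results of these data known, so their separation is not an independent result. NANOG, a homeobox factor of the epiblast, ranged from 3.11 to 48.4 CPM in ED with a median of 17.4, and from 0 to 0.189 in EEM with a median of 0.0186. EOMES, a T-box factor needed for mesoderm and endoderm formation, ranged from 2.95 to 63.1 CPM in ED with a median of 17.3, and from 0 to 0.071 in EEM. SLC7A3, a transporter of cationic amino acids, ranged from 1.21 to 162 CPM in ED with a median of 34.5 and had no read in any of the 8 membranes. None of these ranges overlapped. The log2 fold change was 8.57 ± 0.42 (SE, n = 8 pairs) for NANOG (edgeR adjusted p = 1.6e-08) and 10.33 ± 0.444 for EOMES (edgeR adjusted p = 4.12e-09). By mean level SLC7A3 was at least 810-fold higher in ED, or at least 525-fold without VE5, with its membranes set at 3 counts per library. This floor is used here wherever a group holds no more than that. Each such bound is the mean of the discs over the mean floor, so single embryos can lie below it, as VE4 does here. VE4 had the lowest disc value for all 3 genes and VE5 the highest.

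The epiblast list held 26 tested genes of 35, of which 16 were higher in ED and none was lower, with a median log2 fold change of 1.43 against -0.05 over all tested genes. The share higher was 61.5%, against 15.3% of all tested genes, and among the 18 members with at least 10 counts in every library 8 were higher (44.4%, against 11% of all genes so filtered) and the median was 0.24. A member at 0 in EEM could pass the filter on low counts only through its disc values, so the share of 61.5% holds for the tested members alone. POU5F1, the octamer-binding factor of pluripotent cells, ranged from 27.0 to 250 CPM in ED with a median of 83.4, and from 0.408 to 2.27 in EEM with a median of 1.20. The tissues did not overlap, and the log2 fold change was 6.22 ± 0.421 (edgeR adjusted p = 2.66e-07). PRDM14, a repressor that keeps the pluripotent state, went from a median of 0.0265 CPM in EEM to 4.22 in ED (log2 fold change 7.24 ± 0.435, edgeR adjusted p = 9.85e-08). FOXD3, a forkhead factor of the epiblast, was at least 41.2-fold higher in ED. GDF3, a ligand of the Nodal group, had a log2 fold change of 6.72 ± 0.55, and the growth factor gene FGF19 was at least 65.9-fold higher.

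Other pluripotency genes were less tied to the disc. SALL4, LIN28A and DNMT3B were higher in ED in all 8 embryos, but their log2 fold changes were 0.96, 1.00 and 1.37 and their ranges overlapped between tissues. LIN28A, which blocks let-7 microRNA maturation, had medians of 68.0 CPM in ED and 45.4 in EEM. ZFP42 and TET1 did not pass the test, with log2 fold changes of 0.00 ± 0.137 and -0.12 ± 0.109 and ED medians of 29.3 and 43.1 CPM. CRIPTO, the co-receptor of Nodal also named TDGF1, had a median of 39.6 CPM in ED and 56.6 in EEM (log2 fold change -0.43 ± 0.145, edgeR adjusted p = 0.0514), with a lower value in ED than in EEM in 6 of 8 embryos. SOX2 and UTF1 are listed at 0 in every library. The feedback inhibitor LEFTY2 failed the filter because 1 disc was too low, with 0.0176 CPM in VE4 and 0.746 to 8.95 in the other 7 discs, against 0.071 or less in EEM. With no filter on low counts its log2 fold change was 5.84 ± 0.558 (edgeR adjusted p = 2.18e-07).

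**Figure D2:**
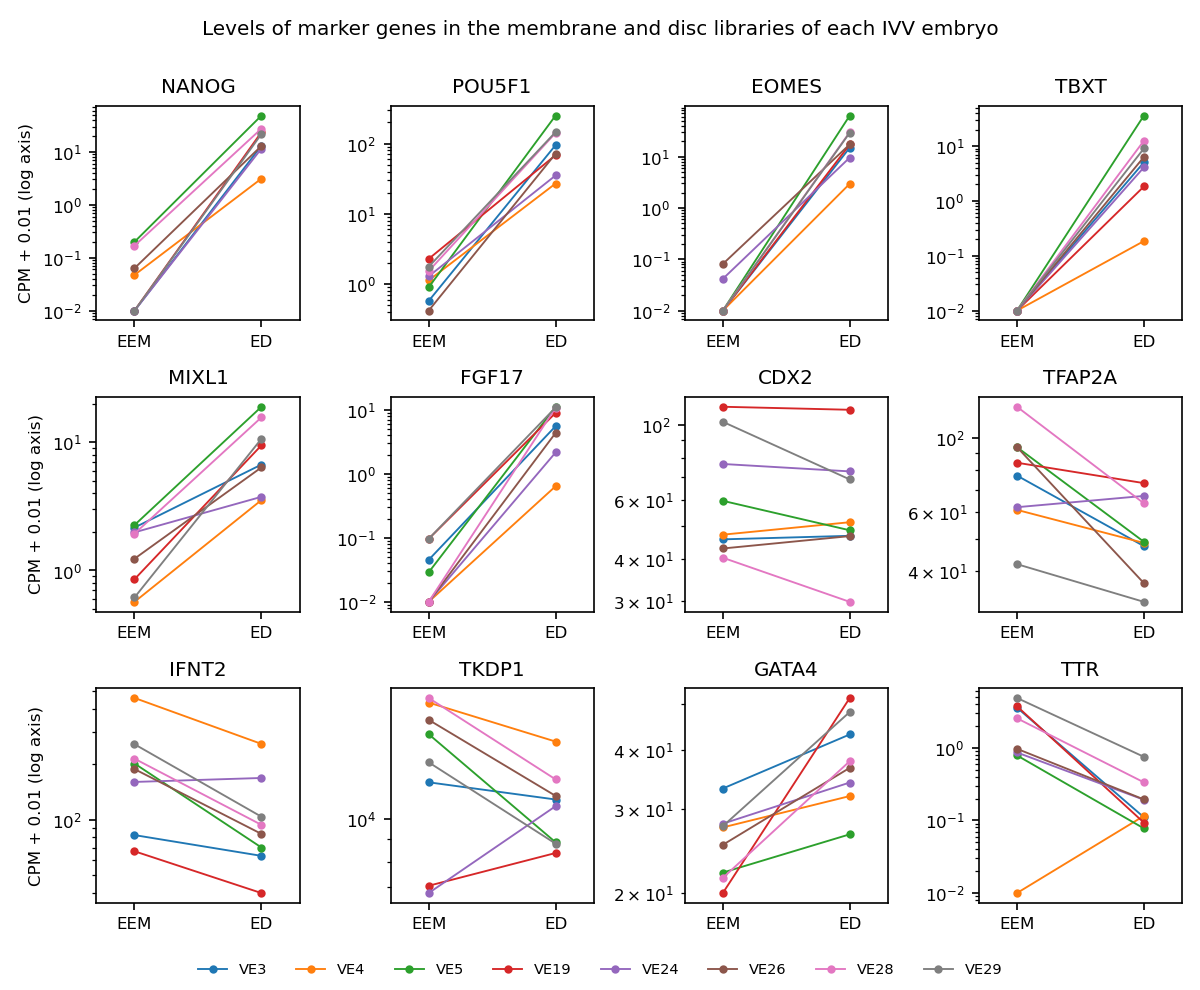
Levels of 12 genes in the EEM and ED library of each IVV embryo, as CPM + 0.01 on a log axis whose range differs between panels, with 1 line per embryo. NANOG, POU5F1, EOMES, TBXT, MIXL1 and FGF17 rise in all 8 embryos, CDX2, TFAP2A, IFNT2 and TKDP1 overlap between tissues, GATA4 rises by less than 2-fold on the fitted scale, and TTR falls in every embryo but VE4, whose membrane had no read.

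Of 36 tested genes of the primitive streak and early mesoderm, of 47 listed, 26 were higher in ED (72.2%, against 15.3% of all tested genes) and none was lower, and the median log2 fold change was 2.48. Among the 15 with at least 10 counts in every library, which leaves out genes near 0 in EEM, 7 were higher (46.7%). The share over all genes so filtered was 11%, and the median of the 15 was 0.52. TBXT, the T-box factor of the streak, had no read in any membrane and 0.176 CPM in VE4, 1.83 in VE19 and 4.10 to 36.1 in the other 6 discs. By mean level TBXT was at least 162-fold higher in ED, or at least 96-fold without VE5, a bound that single embryos such as VE4 did not reach. MIXL1, a homeobox factor of mesendoderm, ranged from 3.53 to 18.9 CPM in ED and from 0.559 to 2.25 in EEM, without overlap (log2 fold change 2.65 ± 0.307, edgeR adjusted p = 2.56e-05). The organiser gene GSC had a log2 fold change of 6.78 ± 0.78, EVX1 was at least 59.5-fold higher, and MESP2, a bHLH factor of nascent mesoderm, had 4.27 ± 0.61. Its neighbour in the family MESP1 differed less, with medians of 6.04 and 2.93 CPM and a log2 fold change of 0.81 ± 0.232. The call of MESP1 was lost in 3 of the fits that each left out 1 embryo, with an edgeR adjusted p of up to 0.0629.

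Of 15 tested receptors and ligands of the same list 11 were higher, with a median log2 fold change of 1.47, and of 21 transcription factors 15 were higher, with a median of 2.92. APLNR, the apelin receptor of migrating mesoderm, ranged from 0.208 to 34.3 CPM in ED with a median of 11.6, and was at most 0.0865 in EEM (log2 fold change 8.69 ± 0.445, edgeR adjusted p = 1.99e-08). KDR, a receptor of vascular endothelial growth factor, ranged from 0.727 to 19.7 CPM in ED with a median of 10.9 and from 0 to 0.242 in EEM. Its log2 fold change was 6.70 ± 0.245 (edgeR adjusted p = 1.23e-09), and its ranges did not overlap. FGF17, a streak fibroblast growth factor, had a median of 7.29 CPM in ED and 0.00946 in EEM. PDGFRA, which also marks hypoblast, was present in both tissues, with medians of 24.5 and 13.9 CPM and a log2 fold change of 0.76 ± 0.167. The list genes FOXA2, CHRD and NOG of the node and endoderm did not pass the test. CER1, an antagonist secreted by anterior endoderm, missed the filter, with 0.0527 CPM in VE4, 1.24 to 10.9 in the other 7 discs and at most 0.0649 in EEM.

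The 8 embryos differed in how far the disc stood from its membrane. Over the 1037 genes beyond 2-fold, which were chosen with these same values, the median log2 difference within an embryo was lowest in VE4, at 1.92, and highest in VE5, at 3.97, with the other 6 between 2.35 and 3.35. VE26 and VE29 had all 1037 genes higher in ED, VE3, VE24 and VE28 had 1036, VE5 had 1031, and VE4 and VE19 had 1013. The order of the embryos was not the same for all genes. VE4 had the lowest disc level of NANOG, TBXT, NODAL and SLC7A3 and the highest of VIM, an intermediate filament of mesenchyme, at 11.5 CPM against 1.43 to 8.81 in the others. The VE19 disc was low for some mesoderm and mesenchymal genes and not for others, with 9.47 CPM of MIXL1 and 3.51 of TBX6 but 0.0208 CPM of SNAI2, 0.208 of APLNR and 1.43 of VIM, while its NANOG and SLC7A3 lay within the range of the others. NODAL, the ligand that patterns the epiblast, was 0.334 CPM in the disc of VE4, near the 0.373 of its membrane, and 2.45 to 12.5 in the other discs.

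**Figure D3:**
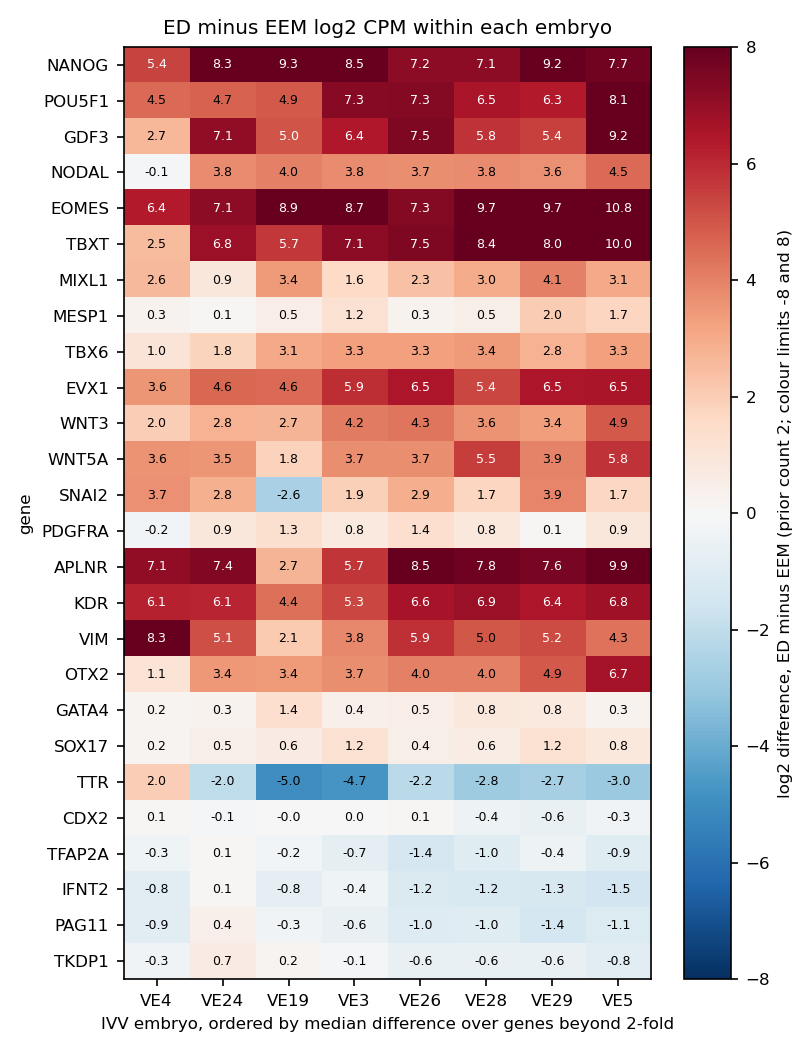
Log2 CPM in ED minus log2 CPM in EEM within each IVV embryo, for 26 genes (rows) and 8 embryos (columns, from the smallest to the largest median difference over 1037 genes), with the value in each cell and colours from blue (lower in ED) to red (higher in ED). NODAL is near 0 only in VE4 and SNAI2 is negative only in VE19, TTR is positive only in VE4, and the trophoblast rows at the bottom stay between -1.51 and 0.65.

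The disc libraries held trophoblast RNA at levels that overlapped those of the membranes. The summed level of 10 defining trophoblast markers ranged from 21370 to 36470 CPM in ED, with a median of 26410, and from 20910 to 40680 in EEM, with a median of 35730. Within an embryo the disc held 65.5% of the membrane level in VE5, 69.4% in VE26, 71.4% in VE29, 72.6% in VE28, 88.8% in VE3, 89.6% in VE4, 102% in VE19 and 118% in VE24. Most of that sum was KRT8 and TKDP1, with means of 11212 and 10779 CPM in ED and 12847 and 13596 in EEM. The median trophoblast marker stood at 58.1% of its membrane level in VE5, 64.6% in VE28, 65.2% in VE26 and 72.2% in VE29. It stood at 88.9% in VE3, 94% in VE19, 99.7% in VE4 and 131% in VE24. None of the 10 markers was at 0 in either tissue. By contrast, of the 3 disc markers SLC7A3 was at 0 in every membrane, and their summed level there was at most 0.189 CPM. The summed level of 7 hypoblast markers ranged from 586 to 1473 CPM in ED and from 492 to 1949 in EEM, and ED was the higher tissue in 2 of 8 embryos. Most of that sum was APOA1, with a mean of 771 CPM in ED and 923 in EEM. The median hypoblast marker stood at 89.5% of its membrane level in VE5 and at 114% to 157% in the other 7 embryos. How much of the difference between embryos and genes comes with these shares was not tested.

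**Figure D4:**
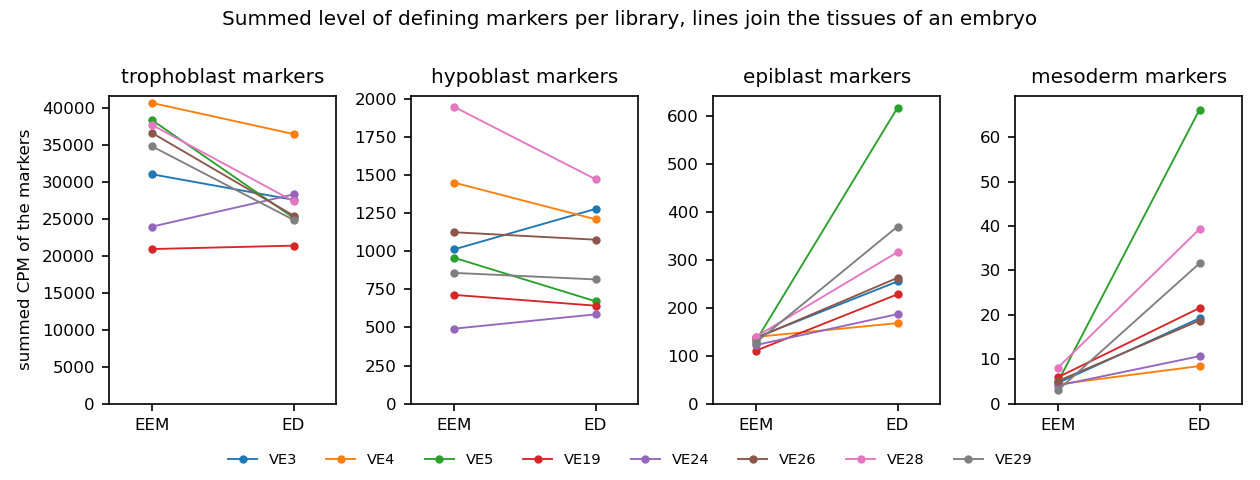
Summed CPM of defining markers of trophoblast (10 genes), hypoblast (7), epiblast (6) and mesoderm (4) in the EEM and ED library of each IVV embryo, on linear axes that start at 0, with 1 line per embryo. The trophoblast sum, mostly KRT8 and TKDP1, and the hypoblast sum, mostly APOA1, overlap between tissues and fall in 6 of 8 embryos. The epiblast and mesoderm sums rise in all 8, most steeply in VE5.

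Among regulators of trophoblast, 29 of 33 were tested, 3 were higher in ED (10.3%, against 15.3% of all tested genes) and 5 were lower (17.2%, against 5.96%). The median log2 fold change was -0.16, which became 0.02 with scaling by library totals alone, where 4 were higher and 1 was lower. Leaving out VE5 or VE28 gave 1 higher and 5 lower. CDX2, the homeobox factor that specifies trophectoderm, ranged from 29.8 to 111 CPM in ED and from 40.3 to 113 in EEM, and its log2 fold change of -0.14 ± 0.107 did not pass the test. The same held for GATA2 (-0.06 ± 0.134), GATA3 (-0.33 ± 0.162), TEAD4 (-0.11 ± 0.116) and ELF5 (-0.16 ± 0.154). TFAP2A, TFAP2C, ETS2, DLX5 and ASCL2 were called lower. DLX5, a distal-less homeobox factor, had medians of 17.4 CPM in ED and 33.2 in EEM and was lower in all 8 embryos (log2 fold change -1.0 ± 0.164, edgeR adjusted p = 0.000461). Without embryo as a block none of the 5 passed, and with library totals alone only DLX5 did. HAND1, which is used by both trophoblast and extra-embryonic mesoderm, went the other way, with medians of 46.8 CPM in ED and 7.95 in EEM and a log2 fold change of 2.91 ± 0.345 (edgeR adjusted p = 3.18e-05).

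Of the secreted and structural products of trophoblast, 42 of 61 were tested, and 9 were higher and 9 lower in ED, 21.4% each against 15.3% and 5.96% of all tested genes. The median log2 fold change was -0.11. With at least 10 counts in every library 4 of 34 were higher (11.8%, against 11% of all genes so filtered) and 7 were lower. With library totals alone 10 were higher, 4 were lower and the median was 0.07, and without embryo as a block 5 were higher and 2 were lower. Interferon tau, the signal of maternal recognition of pregnancy, was lower in ED: IFNT2 ranged from 39.9 to 257 CPM in ED and from 67.3 to 457 in EEM (log2 fold change -0.89 ± 0.161, edgeR adjusted p = 0.00106), and IFNT3 had -0.65 ± 0.154. The placental protease-like glycoprotein PAG11 had medians of 6219 CPM in ED and 11508 in EEM and was lower in 7 of 8 embryos (log2 fold change -0.73 ± 0.178, edgeR adjusted p = 0.00935). HSD17B1, an oestrogen-forming enzyme, was lower in all 8 embryos, with medians of 442 and 828 CPM. KRT8, the keratin of simple epithelia, ranged from 9178 to 13496 CPM in ED and from 10352 to 14522 in EEM, and its log2 fold change of -0.20 ± 0.104 did not pass the test. TKDP1, PAG2 and the prostaglandin synthase PTGS2 did not pass either, with -0.27, -0.34 and -0.18.

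Members of the same product families differed in direction. TKDP4, a Kunitz-domain protein of trophoblast, ranged from 170 to 767 CPM in ED with a median of 569, and from 9.61 to 195 in EEM with a median of 104. It was higher in ED in all 8 embryos, although the ranges overlapped slightly, with a log2 fold change of 2.75 ± 0.375 (edgeR adjusted p = 9.9e-05). PAG12 had medians of 22.6 CPM in ED and 6.19 in EEM and a log2 fold change of 1.85 ± 0.312, with VE5 alone lower in ED. Interferon tau, PAG and TKDP genes form families of near-identical copies, between which counting may have split reads, so their single values are uncertain. The matrix protease MMP2 and the secreted phosphoprotein SPP1, both on the same list, had log2 fold changes of 6.74 ± 0.376 and 4.52 ± 0.758. MMP2 had a lowest disc value of 6.84 CPM against a highest membrane value of 0.522.

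None of the tested trophoblast regulators or products was among the 16 genes lower in ED beyond 2-fold. SLC27A6, a fatty acid transporter, had the smallest p in this direction. It ranged from 81.0 to 207 CPM in ED with a median of 168, and from 238 to 694 in EEM with a median of 458. The ranges did not overlap, and the log2 fold change was -1.54 ± 0.138 (edgeR adjusted p = 2.84e-06). TAGLN, an actin-binding protein of contractile cells, had medians of 26.5 and 58.1 CPM, and PKD2L1, a cation channel, had 34.5 and 64.9, with log2 fold changes of -1.34 ± 0.142 and -1.04 ± 0.132. GPR174, RCAN1, TMEM150B, PRR15 and SLC10A1 followed among the 10 smallest p values, with log2 fold changes from -1.21 to -0.91, and each was lower in all 8 embryos. Reads at the MIR192 locus, which in these libraries would come from a longer transcript, were at most 0.0837 CPM in ED and 0.373 to 1.06 in EEM. By size of the difference, CYP2C281, RORB, PDCL2, DIRAS2 and FSHB joined them, with log2 fold changes of -1.86, -1.74, -1.51, -1.39 and -1.33 and mean levels of 1.64 to 6.25 CPM in EEM.

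XIST, the RNA that coats the inactive X chromosome, was lower in ED in all 8 embryos. In VE3 and VE5 it was 0.0167 and 0.0169 CPM in ED and 0.194 and 0.208 in EEM. In the other 6 embryos it was 47.0 to 135 CPM in ED and 95.4 to 429 in EEM. The log2 fold change over the 8 pairs was -1.47 ± 0.165 (edgeR adjusted p = 1.91e-05). Without embryo as a block XIST did not pass (edgeR adjusted p = 0.554).

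Hypoblast and endoderm genes were mixed. Of 44 tested members, of 55 listed, 16 were higher in ED and 5 were lower (36.4% and 11.4%, against 15.3% and 5.96% of all tested genes), with a median log2 fold change of 0.30. Without embryo as a block 10 were higher and 1 was lower, with library totals alone 20 and 2, and with at least 10 counts in every library 10 and 2 of 32. Without VE3 16 were higher and 2 were lower (36.4% and 4.55%, against 13.8% and 4.75% of all genes in that fit). Of 12 tested transcription factors of hypoblast 5 were higher in ED and none was lower, with log2 fold changes of -0.53 to 1.94 over the 12. GATA4 had medians of 37.3 CPM in ED and 26.4 in EEM, SOX17 had 40.4 and 20.9, and HNF4A had 70.4 and 43.4. All 3 were higher in ED in 8 of 8 embryos, with log2 fold changes of 0.58 ± 0.133, 0.70 ± 0.127 and 0.71 ± 0.104, while GATA6, with 0.29 ± 0.102, did not pass (edgeR adjusted p = 0.0553).

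Of 16 tested genes of plasma and yolk sac proteins 8 were higher in ED, 1 was lower and 7 were not called. The shares called were 50.0% and 6.2%, against 15.3% and 5.96% of all tested genes. Several carrier and lipoprotein genes differed much more than the transcription factors above. TF, which encodes the iron carrier transferrin, ranged from 0.499 to 39.8 CPM in ED with a median of 17.9, and from 0 to 0.204 in EEM (log2 fold change 7.17 ± 0.486, edgeR adjusted p = 2.67e-07). APOB and APOA2, lipoprotein genes, had log2 fold changes of 4.64 ± 0.655 and 1.97 ± 0.219, and CUBN and VIL1, of the endocytic and brush border apparatus, had 5.13 ± 0.627 and 4.24 ± 0.338. TTR, the carrier of thyroid hormone, was the member called lower, with 0.0676 to 0.741 CPM in ED and 0.776 to 4.84 in 7 of the 8 membranes. It had no read in the membrane of VE4. Its log2 fold change was -3.00 ± 0.587 (edgeR adjusted p = 0.00193). APOA1, LRP2, FN1 and COL4A1, which are abundant in yolk sac tissue, did not pass the test, and their log2 fold changes lay between -0.24 and -0.02. AFP was at 4.34 CPM in the disc of VE26 and 7.82 in that of VE29, at most 0.0208 in the other 6 discs, and at 0 in all membranes.

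Of 14 tested genes of anterior and neural fate, of 24 listed, 8 were higher in ED (57.1%, against 15.3% of all tested genes) and 1 was lower, with a median log2 fold change of 1.53. With at least 10 counts in every library 4 of 9 were higher (44.4%, against 11% of all genes so filtered) and the median was 0.65. SOX11, an SRY-related factor of early neural cells, ranged from 4.87 to 81.5 CPM in ED and from 0.459 to 1.21 in EEM (log2 fold change 4.74 ± 0.337, edgeR adjusted p = 4.08e-07). ZIC2 and ZIC5, zinc finger factors of the anterior epiblast, had 1.92 ± 0.299 and 2.80 ± 0.372, and PAX3 was at least 17.8-fold higher. OTX2, an anterior homeobox factor counted with the epiblast, had medians of 20.1 and 0.853 CPM. HESX1, another anterior homeobox gene, was the member called lower, with medians of 3.64 CPM in ED and 6.92 in EEM (log2 fold change -0.79 ± 0.21, edgeR adjusted p = 0.0148). The call was lost with library totals alone and without embryo as a block. Among 22 tested HOX genes, of 39, only HOXA13 was called (4.5%, against 21.3% of all tested genes called either way), and the list median was -0.17, or 0.01 with library totals alone. HOXA13 no longer passed the filter on low counts without VE3 or VE29. DESeq2 called 4 other HOX genes lower (18.2%, against 11.9% of all genes in that fit). HOXA13 was 0.166 to 0.423 CPM in ED and at most 0.0216 in EEM, where it was at the floor.

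In the Wnt pathway, whose signals drive formation of the streak, 53 of 67 genes were tested, 25 were higher in ED (47.2%, against 15.3% of all tested genes) and 2 were lower, with a median log2 fold change of 0.60. Of the 37 with at least 10 counts in every library, 14 were higher (37.8%, against 11% of all genes so filtered) and the median was 0.27. Of the ligands, WNT5A ranged from 1.02 to 12.6 CPM in ED and from 0.111 to 0.606 in EEM (log2 fold change 4.12 ± 0.373, edgeR adjusted p = 3.18e-06). WNT3 and WNT3A, the streak ligands of the canonical branch, had 3.68 ± 0.327 and 2.60 ± 0.425, without overlap. WNT11, a ligand of cell movement, was present in both tissues, with medians of 60.2 and 21.9 CPM and a log2 fold change of 1.69 ± 0.166. WNT7B was lower in ED in all 8 embryos, with medians of 20.6 and 30.5 CPM, and WNT6 had -0.35 ± 0.202 and did not pass.

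Of the Wnt receptors, FZD2 and ROR2, the latter a receptor of WNT5A, had log2 fold changes of 2.59 ± 0.229 and 4.59 ± 0.501. SFRP1, a secreted antagonist, ranged from 8.37 to 88.4 CPM in ED and from 0.0216 to 1.12 in EEM, and its log2 fold change was 5.51 ± 0.466 (edgeR adjusted p = 1.71e-06), the largest among the tested genes of the list, whereas the antagonist DKK1 had -0.08 ± 0.323. LEF1 and TCF7, which carry the signal to DNA, had 4.98 ± 0.37 and 2.28 ± 0.218. AXIN2, a feedback target, had medians of 13 and 3.44 CPM (log2 fold change 1.48 ± 0.225), and CTNNB1, the transducer itself, had 0.06 ± 0.121.

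Of 44 tested genes of BMP, Nodal and related signals, of 55 listed, 20 were higher in ED (45.5%, against 15.3% of all tested genes) and 1 was lower, with a median of 0.47. Among the ligands, BMP6 had medians of 22.5 CPM in ED and 1.37 in EEM (log2 fold change 3.67 ± 0.383, edgeR adjusted p = 1.08e-05) and BMP2 had 28 and 12.6 (1.19 ± 0.284). BMP4, which is known to signal from extra-embryonic tissue in the mouse, had 26 and 16.8 and did not pass the test (0.51 ± 0.196, edgeR adjusted p = 0.0822). BMP7 was the member called lower, at -0.40 ± 0.112, and the call was lost with library totals alone, without embryo as a block and without VE3. Of 11 tested receptors 3 were higher in ED, none of them beyond 2-fold. Among transducers and inhibitors, SMAD6 had medians of 14.5 and 1.71 CPM (3.27 ± 0.372), the Nodal cofactor FOXH1 had 19.8 and 2.89 (3.04 ± 0.396), and the BMP targets ID1 and MSX1 had 1.84 ± 0.27 and 3.12 ± 0.276.

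In the FGF pathway 17 of 24 tested genes, of 32 listed, were higher in ED (70.8%, against 15.3% of all tested genes) and none was lower, with a median of 1.12. All 5 receptor genes were called. FGFR1 had medians of 64.7 CPM in ED and 21.2 in EEM (log2 fold change 1.54 ± 0.173, edgeR adjusted p = 1.96e-05) and FGFR3 had 64.9 and 23.6 (1.43 ± 0.168). FGFR2, the receptor form linked to trophoblast, differed by 0.34 ± 0.0949 and lost its call when VE3 or VE5 was left out. Of the targets, ETV1 was at least 44.0-fold higher, ETV5 and ETV4 had 2.31 ± 0.279 and 1.5 ± 0.222, and SPRY2, a feedback inhibitor, ranged from 18.0 to 37.6 CPM in ED and from 6.96 to 16.3 in EEM. FGF10, a ligand present in both tissues, had 0.06 ± 0.126. FGF4, the epiblast ligand, failed the filter, with at most 1.03 CPM in ED and no read in EEM.

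Among adhesion genes of the epithelial and mesenchymal states, 11 of 23 tested were higher in ED (47.8%, against 15.3% of all tested genes) and none was lower, with a median of 0.39 (0.19 over the 20 with at least 10 counts in every library), and all 5 tested cadherins were among them. CDH11, a mesenchymal cadherin, was at least 146-fold higher, with 0.478 to 16.4 CPM in ED. CDH2, the cadherin of mesoderm and neural tissue, ranged from 48.5 to 71.0 CPM in ED and from 16.1 to 38.2 in EEM (log2 fold change 1.02 ± 0.126, edgeR adjusted p = 4.47e-05). CDH1, its epithelial counterpart, had medians of 189 and 130 CPM and a log2 fold change of 0.67 ± 0.192, which lost its call when VE3, VE5 or VE28 was left out. VIM had medians of 5.89 and 0.148 CPM (5.15 ± 0.53), and the epithelial gene EPCAM had 0.15 ± 0.163.

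The 10 smallest p values among genes higher in ED belonged to COL15A1, TGFBI, KDR, CLDN10, CCNJL, VRTN, A2M, SEZ6L, EOMES and CDH11. COL15A1, a basement membrane collagen, ranged from 2.18 to 73.8 CPM in ED and was at most 0.0216 in EEM, at least 422-fold higher. TGFBI, a matrix protein induced by transforming growth factor beta, ranged from 20.8 to 152 CPM in ED with a median of 65.5, and from 0.0568 to 0.195 in EEM (log2 fold change 8.90 ± 0.312, edgeR adjusted p = 1.23e-09). VRTN, known for its link to vertebral number in pigs, had medians of 22.3 and 0.0374 CPM, and the protease inhibitor A2M had 12.5 and 0, with 1.17 CPM in VE5 against 5.97 or more in the other discs. CLDN10, a tight junction claudin, and CCNJL, a cyclin-like gene, were at least 112-fold and 98.1-fold higher, and SEZ6L had 9.30 ± 0.39. The 10 largest fitted differences added SLC7A3, TBXT, SYT13, COL5A2, GABRA4, TMEM130 and FEZ1, each with no read in any membrane. Fitted folds over such membranes are not bounds, and at the floor SYT13 was at least 100.2-fold higher in ED and FEZ1 at least 49.7-fold, or 33.2-fold without VE5.

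Among genes of blood and vessel formation, 6 of 13 tested, of 19 listed, were higher in ED (46.2%, against 15.3% of all tested genes) and none was lower, with a median of 0.42. With at least 10 counts in every library 2 of 8 were higher (25%, against 11% of all genes so filtered) and the median was 0.18. Besides KDR they were LMO2, a cofactor of haematopoietic progenitors (log2 fold change 4.65 ± 0.357), CD34 (at least 11-fold higher), TEK, FLT1 and EGFL7. The call of FLT1 was lost in 2 of the fits that each left out 1 embryo, with an edgeR adjusted p of up to 0.0717. FLI1, an endothelial factor, missed the filter through VE19, with 0.125 CPM there, 1.76 to 3.66 in the other discs and at most 0.0355 in EEM. Of 14 tested imprinted genes, 5 were higher in ED (35.7%, against 15.3% of all tested genes) and 1, ASCL2, was lower, with a median of 0.22. With at least 10 counts in every library 2 of 10 were higher (20%, against 11% of all genes so filtered) and 1 was lower. The call of ASCL2 was lost without VE26 or VE28, with an edgeR adjusted p of up to 0.0578. H19, a maternally expressed RNA, ranged from 0.104 to 22.9 CPM in ED and from 0.0649 to 6.20 in EEM and was higher in ED in all 8 embryos (2.41 ± 0.208, edgeR adjusted p = 2.18e-06). Its neighbour IGF2, the paternally expressed growth factor, had 1.44 ± 0.222, MEG3 had 4.73 ± 0.479 and PEG10 had 2.12 ± 0.277. Of 10 tested DNA methylation genes only the de novo enzymes DNMT3A and DNMT3B were called, both higher in ED (0.98 ± 0.226 and 1.37 ± 0.255). That is 20%, against 15.3% of all tested genes, and DNMT1 and the TET genes did not pass.

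Most nutrient and energy genes were not called. Of 43 tested transporters 7 were higher (16.3%, against 15.3% of all tested genes) and 4 were lower (9.3%, against 5.96%), with a median of 0.08. With library totals alone 14 were higher and 3 were lower (32.6% and 6.98%), when 20% and 1.59% of all tested genes were. SLC38A1, a glutamine transporter, ranged from 1.12 to 6.56 CPM in ED and from 0.0373 to 0.249 in EEM (log2 fold change 4.20 ± 0.375, edgeR adjusted p = 2.9e-06), and SLC7A8 had medians of 305 and 178 CPM. The glucose transporters SLC2A1 and SLC2A3 did not pass, with 0.45 ± 0.18 and 0.39 ± 0.171. Beside SLC27A6, the lipid uptake and carrier genes SCARB1 and FABP5 were lower, at -0.67 ± 0.133 and -0.47 ± 0.138. The call of FABP5 was lost in 4 of 8 fits that each left out 1 embryo (without VE5, VE19, VE28 or VE29), with an edgeR adjusted p of up to 0.0724. Of 48 tested genes of energy metabolism 12 were higher and 4 were lower (25% and 8.3%, against 15.3% and 5.96% of all tested genes), with a median of 0.06. Without embryo as a block 8 were higher and 1 was lower (16.7% and 2.08%, against 11.4% and 0.482% of all genes). SCD5, a stearoyl-CoA desaturase, was at least 136-fold higher in ED, with 1.11 to 21.0 CPM, while its relative SCD had medians of 921 and 819 CPM and a log2 fold change of -0.02 ± 0.166. The glycolytic genes HK1 and TPI1 were higher (1.22 ± 0.164 and 1.07 ± 0.183), GAPDH had -0.08 ± 0.112, and ACSL3, ACSL4 and FADS2, of fatty acid use, were lower by less than 2-fold.

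Few cell cycle genes were called. Of 32 tested, TOP2A and BUB1B were higher and CCND2 and CDC6 were lower (6.2% each way, against 15.3% and 5.96% of all tested genes), with log2 fold changes of 0.80, 0.59, -0.60 and -0.38 and a list median of -0.09, which was 0.09 with library totals alone. Without embryo as a block none of the 4 passed, and CDC6 lost its call in 5 of the 8 fits that left out 1 embryo. Of 8 tested germ cell genes 4 were higher (50.0%, against 15.3% of all tested genes) and TFAP2C was lower. The 4 were PRDM1 (1.63 ± 0.251), DND1 (1.59 ± 0.313), and PRDM14 and SOX17, which are also on the epiblast and hypoblast lists. NANOS3 was not called, with log2 fold changes of -0.73 to -0.18 when 1 embryo at a time was left out. The median of the list was 0.96, and 0.45 over the 6 with at least 10 counts in every library. Of 9 tested amnion genes HAND1 and IGFBP3 were higher (22.2%, against 15.3% of all tested genes) and TFAP2A was lower. The 4 defining markers of maternal uterus and blood were near 0. The summed level of SERPINA14, PAEP, PTPRC and HBB was at most 1.12 CPM in ED, in VE5, and 0.0433 in EEM. Of 5 tested maternal genes only LTF was called, higher in ED (20%, against 15.3% of all tested genes), with medians of 0.584 and 0.155 CPM. In the wider list 4 genes had at least 10 counts in every library, so the defining markers do not stand for all of it. With no filter on low counts 4 of 15 were higher in ED (26.7%, against 13.2% of all genes in that fit), among them the following 3, named after their values were seen: OXTR, the oxytocin receptor (log2 fold change 4.86, edgeR adjusted p = 0.000878), PTPRC, the leukocyte antigen CD45 (4.77, edgeR adjusted p = 0.0026), and MUC16, an epithelial mucin (3.32, edgeR adjusted p = 0.0302).

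**Figure D5:**
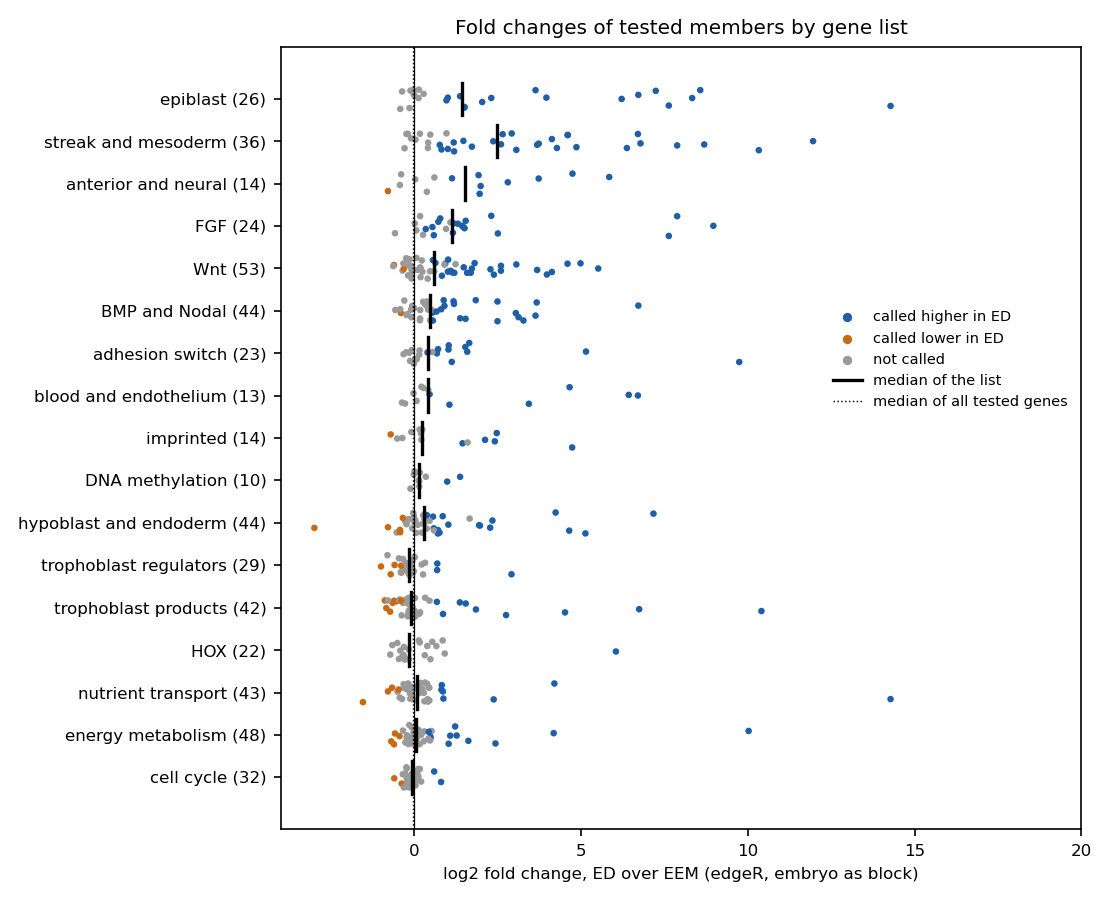
Log2 fold change, ED over EEM, of the tested members of 17 gene lists (the number tested is in brackets), with 1 point per gene, coloured by call, the median of each list as a black bar and the median of all tested genes as a dotted line. The streak and mesoderm list has a median of 2.48, or 0.52 among members with at least 10 counts in every library, while the trophoblast, HOX and cell cycle lists have medians between -0.17 and -0.09, near the -0.05 of all genes.

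The difference between tissues was then compared with that in the 5 IVP embryos with both tissues, in 1 fit over 26 libraries with embryo as a block. Of 16784 genes tested, 172 had a tissue difference that depended on the procedure (1.02%), and for 154 of them (0.918%) ED over EEM was smaller or more negative in IVP than in IVV, while for 18 (0.107%) it was larger. The count fell to 101 without IVV embryo VE29, 104 without VE28, and 109 without IVP embryo 10 or F14, and to 11 among genes with at least 10 counts in every library. Among the disc markers, NANOG had an interaction of 0.09 ± 0.516 on the log2 scale (edgeR adjusted p = 0.992), EOMES 1.17 ± 1.06 and SLC7A3 -3.58 ± 1.31, and none passed. The interval of these estimates is wide, so they do not show that the procedures were alike.

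The 3 named genes with the smallest interaction p were FBN2, SH3BGRL and GYPC. FBN2, a fibrillin of embryonic matrix, ranged in IVP embryos from 0.745 to 1.04 CPM in ED and from 0.452 to 1.93 in EEM, so the tissues overlapped. In the IVV embryos it ranged from 0.771 to 5.24 CPM in ED and from 0.085 to 0.304 in EEM, scaled over all 26 libraries, without overlap. The interaction was -4.35 ± 0.447 (edgeR adjusted p = 5.51e-05). SH3BGRL had -3.75 ± 0.393 and GYPC, a glycophorin, had -8.53 ± 0.976. WNT5A had medians of 0.651 CPM in ED and 0.792 in EEM of IVP embryos, against 4.95 and 0.291 in IVV (interaction -4.18 ± 0.514, edgeR adjusted p = 0.000278). KDR had a median of 0.410 CPM in the IVP discs against 10.2 in the IVV discs, and an interaction of -5.00 ± 0.865. The IVV and IVP embryos also differed in their dams, in passage through a recipient and, in the paper, in length, so procedure and these cannot be told apart. XIST was at most 0.284 CPM in the 5 IVP discs and 0.594 in their membranes, against medians of 55.7 and 145 in IVV, where only VE3 and VE5 were near 0. Embryo sex and morphology, for which the paper adjusted its methylation model, were not in this fit. The part of XIST or of sex in the interaction was not tested.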

How the data were processed

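RNA was measured by non-stranded poly(A) RNA-seq in paired ED and EEM pieces of 8 IVV embryos. The authors trimmed reads (SOAPnuke), used STAR 2.7.0b for alignment to ARS-UCD1.3, assigned reads to genes by featureCounts (Subread 2.0.3) and deposited raw counts, whole numbers with no normalisation. The labels also name FastQC 0.11.9 and Trimmomatic. Overlapping genes on opposite strands, and near-identical family members, cannot be told apart in such counts. Of 35092 identifiers, 31630 were given a symbol from the RefSeq ARS-UCD2.0 table, and these held 99.5% of counts. No coordinates are given because the builds differ.

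Genes were kept by filterByExpr with a minimum count of 10, scaled by TMM and fitted with edgeR 4.0.16 (R 4.3.3), log2 CPM having a prior count of 2. The design had embryo as a block and tissue as the term. Genes were called at a Benjamini-Hochberg adjusted p of 0.05, and glmTreat tested against a log2 difference of 1. The interaction used 26 libraries. Same-embryo libraries deviated together, with correlations from 0.297 to 0.689, and every disc matched its own membrane best, so the pairing, which comes from the embryo names in the labels, was kept as the block. Total counts per library ranged from 49768415 to 58220960. P-values rest on the spread over 8 embryos, which were treated as independent although they come from 2 cows. The scripts were tested on simulated data. DESeq2 1.42.0, limma 3.58.1 with voom, other scalings and filters, and leaving out embryos were tried as alternatives.

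The embryos and gene lists were chosen with earlier results of these data known. Named genes were the 10 smallest p values in each direction, the 10 largest log2 differences in each direction among called genes with 1 sign in all 8 embryos and a mean of at least 1 CPM in the higher tissue (passing over genes without a name), the disc markers, list members given beside their list's counts, and the 3 smallest interaction p values.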

Additional observations from a re-analysis of the deposited data

Results flagged for a closer look

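Among 177 named genes called between tissues, the difference of 1 embryo lay far from those of the other 7 for 9 genes, by the gap to its neighbour over the whole range of the 8 values. Chance flags about 1 in 20 such groups, so 9 of 177 is near what chance gives. In VE4 the log2 difference, ED minus EEM, was 2.66 for CLDN10 (5.85 to 8.31 in the others), -0.14 for NODAL (3.64 to 4.52) and 1.97 for TTR (-4.98 to -2.02). In VE19 it was -2.57 for SNAI2 (1.66 to 3.92), 7.17 for SMAD6 (2.30 to 4.10), 3.60 for GJA1 (0.64 to 2.03) and -0.19 for IGF2 (1.27 to 2.54). In VE5 it was 5.05 for A2M (7.37 to 8.88) and -0.54 for PAG12 (1.29 to 2.80). The large value of SMAD6 in VE19 goes with a membrane of 0.0216 CPM against 0.995 to 2.71 in the other membranes.

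For 20 named genes the tissue difference depended on the procedure (interaction in edgeR, adjusted p under 0.05), and for all 20 of these ED over EEM was smaller in IVP than in IVV, as it was for 154 of the 172 genes called among 16784 (1.02%). Most of the 20 were named because ED was high in these same IVV libraries, and 3 because of their interaction p, so neither the count nor its direction is independent. On the log2 scale the interaction was -7.31 for COL15A1, -3.24 for TGFBI, -5.00 for KDR, -8.38 for CLDN10, -2.57 for VRTN and -5.38 for CDH11, all among the 10 smallest p values of the IVV comparison. Of the streak and Wnt genes it was -2.45 for MIXL1, -2.51 for TBX6, -2.69 for WNT3, -4.18 for WNT5A and -2.43 for WNT4. It was -10.77 for HOXA13, -2.47 for SMAD6, -1.89 for MSX1, -4.23 for MEG3, -5.69 for SCD5 and -3.02 for LMO2. The 3 smallest p values gave -4.35 for FBN2, -3.75 for SH3BGRL and -8.53 for GYPC. For COL15A1, CLDN10, CDH11, HOXA13, SCD5 and GYPC the IVV membranes held at most 2 counts per library, so the size of the fitted interaction depends on the prior count and is no bound. HOXA13 was also at most 0.046 CPM in the IVP discs, with a median of 0 and a highest value of 2.30 in the IVP membranes. The IVV libraries enter both the tissue comparison and the interaction, so the 2 are not independent.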

How the results depend on the processing

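No called named gene that could be tested changed sign under any of the 18 alternatives to the paired comparison. Of the 177 named calls, 46 were lost without embryo as a block, 13 with library totals alone, and none with DESeq2, voom, RLE scaling or no filter. Leaving out 1 embryo lost the call of 15 named genes in at least 1 of 8 omissions (ASCL2, BMP7, CDC6, CDH1, CYP11A1, ESRRB, ETS2, FABP5, FGFR2, FLT1, GRHL2, HSD3B1, MESP1, SKIL and SSLP1), with adjusted p up to 0.112.

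The reported counts were 3222 called (2320 higher, 902 lower) and, beyond 2-fold, 1053 (1037 and 16). Without the replicate block, 1802 genes were called, 73 of them lower, with 9 lower beyond 2-fold; the block is what pairs the tissues, and 1771 of the 1802 were also called with it. DESeq2 called 1803 lower and library totals alone 240. With at least 10 counts in every library, which removes genes near 0 in EEM, 1891 were called, 1369 higher and 522 lower, and beyond 2-fold 274, 271 higher and 3 lower. The 6 embryos whose titles end in C gave 467 lower, and all 9 discs with 8 membranes, unpaired, gave 2140, 115 of them lower. RLE scaling put 62.7% of calls on the higher side, DESeq2 57.7%, the unpaired fits 95.9% and 94.6%, against 72.0% in the paired TMM fit. Omitting 1 embryo gave 2501 to 3719 calls, 1997 to 2449 higher and 504 to 1270 lower.

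For the interaction (172 calls, 154 smaller and 18 larger in IVP), DESeq2 called 435 (390 and 45), and the fit without the replicate block 229 (196 and 33). With at least 10 counts in every library 11 were called, 11 smaller and 0 larger, with 867 at an unadjusted p under 0.05. Omitting 1 embryo gave 101 to 211 calls, 87 to 193 smaller and 11 to 21 larger. The causes of these changes were not tested beyond what each setting removes. A count of 0 in a library allows up to 3 counts, and differences below that level were not detectable.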
